A study of Mus musculus with 6 samples.

Results

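The transporters that carry amino acids, sugars, lactate and related small acids across membranes were examined in myotubes of C2C12, an established line of mouse myoblasts whose cells stop dividing and fuse into multinucleated fibres in low serum. Members were all genes of the count table named Slc1a, Slc2a, Slc3a, Slc7a, Slc16a, Slc36a, Slc38a or Slc43a followed by a number. There were 68 such genes among 46983, and 38 of them had a summed count of at least 60 over the libraries and were tested. Messenger RNA was sequenced from 3 libraries labelled corticosterone (1e-07 M, 24 h), the main glucocorticoid of rodents, and 3 labelled vehicle (ethanol at 1 µL/mL, 24 h). All were wild-type C2C12 cells differentiated in horse serum in a medium with glucose, pyruvate and glutamine, so every library comes from 1 cell line. The submitters call the 3 libraries of each treatment independent biological replicates. They are written here as C1, C2 and C3 for the libraries labelled corticosterone replicates 1, 2 and 3, and V1, V2 and V3 for those labelled vehicle. Values in a row are always given in that order. Levels are CPM, read counts scaled to library size by the TMM method.

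Total counts ran from 23877583 to 29928653 per library. The 7 myotube marker genes tested summed to between 9570 and 15539 CPM. Of 10 markers of fat, endothelium, leukocytes, epithelium and neurons, 9 were under the count minimum and 5 of those (Adipoq, Epcam, Ptprc, Rbfox3 and Snap25) had no count at all. The leukocyte marker Cd68 passed the minimum, with a summed count of 209. Before any result on transporters, the labels need a caution. Fkbp5, a glucocorticoid-induced co-chaperone gene, stood at 151, 36.9, 135, 36.9, 177 and 35.4 CPM. It was thus high in C1, C3 and V2 and low in C2, V1 and V3, and Tsc22d3 and Per1 divided the libraries in the same way. C2 and V2 therefore went against their labels on these genes. Over the 14380 genes tested, each library also had 1 nearest partner: C1 with V3, C2 with C3, and V1 with V2 (Pearson's r of log2 CPM across genes, 0.989 to 0.991). Each of these near pairs held 1 library with high and 1 with low Fkbp5. Nothing in the labels says that the pairs were grown together. Values are therefore given in all 6 libraries, by label with the test, and then by both of these divisions as a description without a test, because measured levels drew them.

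Muscle cells take up amino acids for protein synthesis through several linked routes. Sodium-driven carriers such as Slc38a2 build up glutamine and small neutral amino acids inside the cell. Exchangers such as Slc7a5, joined to the heavy chain Slc3a2, then trade these for leucine and other essential amino acids, which activate mTORC1, the kinase complex that drives protein synthesis. When amino acids run short, the transcription factor ATF4 induces several of these carriers. Glucose enters through Slc2 proteins, Slc2a1 in most cells and Slc2a4 on insulin stimulation in mature muscle, and Slc16 proteins carry lactate and pyruvate with protons. Glucocorticoids are known to oppose insulin and to promote protein breakdown in muscle.

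The myotubes expressed part of this set of carriers. Of the 38 members tested, 5 had a mean of at least 100 CPM, 20 lay between 10 and 100 CPM, 12 between 1 and 10 CPM and 1, the urate carrier Slc2a9, under 1 CPM. Slc2a9 was also the member closest above the count minimum, with a summed count of 145, and Slc16a8 was closest below it with 58. The 30 members under the minimum included 5 with no count in any library (Slc1a1, Slc38a11, Slc7a10, Slc7a12 and Slc7a9). Slc2a3, a glucose carrier of neurons, had 45 counts in all, and the exchanger Slc7a8 had 30. Slc38a2 made up 28.1% of the summed CPM of all tested members. Per kilobase of exon, the mean level was highest for Slc38a2 (68.7 CPM per kb), followed by Slc7a5 (47.4), Slc3a2 (39.1), Slc38a10 (28.8) and Slc2a6 (27.5). Slc2a1 stood at 17.4 and Slc2a4, the insulin-responsive carrier, at 0.777 CPM per kb. The 3 genes that mark this set of carriers, Slc7a5, Slc38a2 and Slc2a1, were thus all well expressed.

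**Figure D1:**
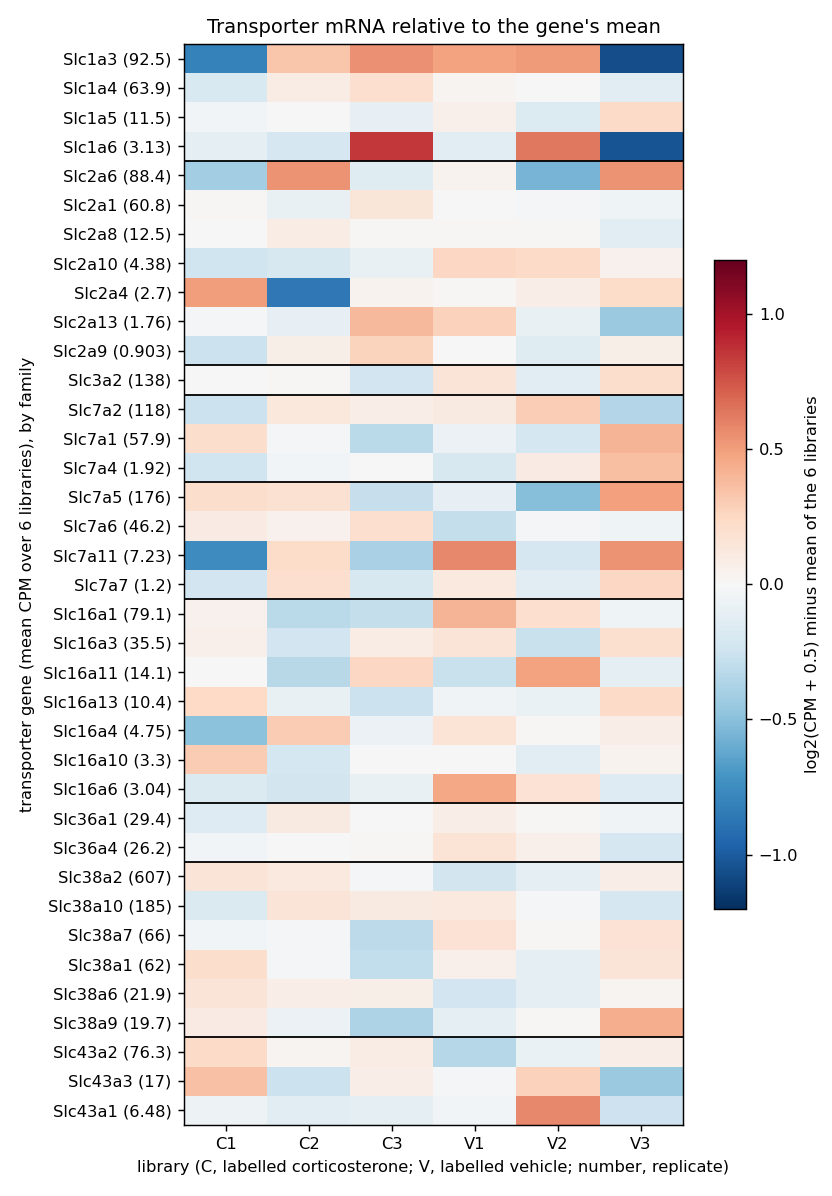
Level of 37 tested transporters (rows, by family, mean CPM in brackets) in the 6 libraries (columns), as log2(CPM + 0.5) minus the mean of the 6 libraries (colour). Slc1a3 is low in C1 and V3 and Slc2a6 and Slc7a11 are low in C1, C3 and V2.

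The summed level of all 38 members varied little, from 2059 CPM in V2 to 2275 CPM in C2. By family the totals differed more. The Slc38 family summed to 1018, 1029, 936, 893, 905 and 989 CPM, with the Slc38a2 mean at 63.1% of it. The Slc7 light chains summed to 252, 252, 200.3, 209, 172 and 297 CPM, lowest in V2 and highest in V3. The Slc1 family summed to 117, 188, 213, 197, 199 and 113 CPM, and C1 and V3 stood apart below the other 4 libraries. The Slc16 family averaged 141 ± 15.7 CPM under the corticosterone label and 170 ± 14.5 CPM under the vehicle label (SD, n = 3 each). Its values were 158, 127, 138, 186, 166 and 158 CPM, and C1 and V3 were nearly equal.

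**Figure D2:**
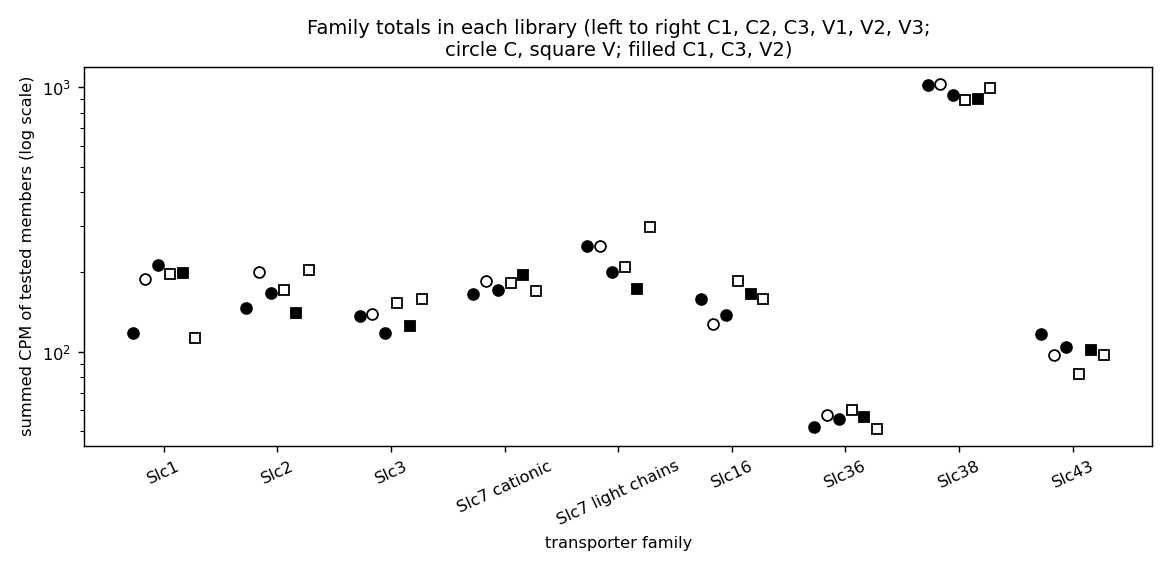
Summed CPM of the tested members of each family (log axis) in each of the 6 libraries, in the order C1, C2, C3, V1, V2, V3 (circles, labelled corticosterone; squares, labelled vehicle; filled, C1, C3 and V2). The Slc1 totals of C1 and V3 lie at 117 and 113 CPM, below those of the other libraries.

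By label, no transporter was called. In edgeR's quasi-likelihood test 0 of 38 members and 0 of 14380 genes (0%) had a Benjamini-Hochberg adjusted p under 0.05. At an unadjusted p under 0.05, 1 member lay higher in the libraries labelled corticosterone, where 5.63% of all genes did, and 4 lay lower, where 6.27% did. 14 members lay higher and 24 lower, where 7314 of all genes tested lay higher and 7066 lower. The median log2 difference (corticosterone minus vehicle) was -0.05, against 0.004 over all genes tested. DESeq2 called 138 genes and limma-voom 0, and neither called a member. Without any overlap of libraries between the labels, 2 members were higher with corticosterone (8.42% of all genes) and 3 were lower (8.18% of all genes). The unadjusted count of 5 members became 1 without C3 or without V1, 3 without C1 and 8 without V3. The gene count of 0 became 29 without C1, 11 without V3 and 3 without C2 and V2 together. Beside these differences, 5 markers of proliferating myoblasts summed to 190.0 to 211 CPM in the libraries labelled corticosterone and 214 to 235 CPM in those labelled vehicle, and the 7 myotube markers to 13585 to 15539 against 9570 to 13620 CPM. By label, 3 of the 5 myoblast markers lay lower and 2 higher, and 6 of the 7 myotube markers lay higher and 1 lower. Ttn alone gave 3566, 3193, 1687, 787, 977 and 1898 CPM. The part of these markers in the differences was not tested. In RNA from whole cultures, fewer cells of a type and less RNA per cell cannot be told apart.

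**Figure D3:**
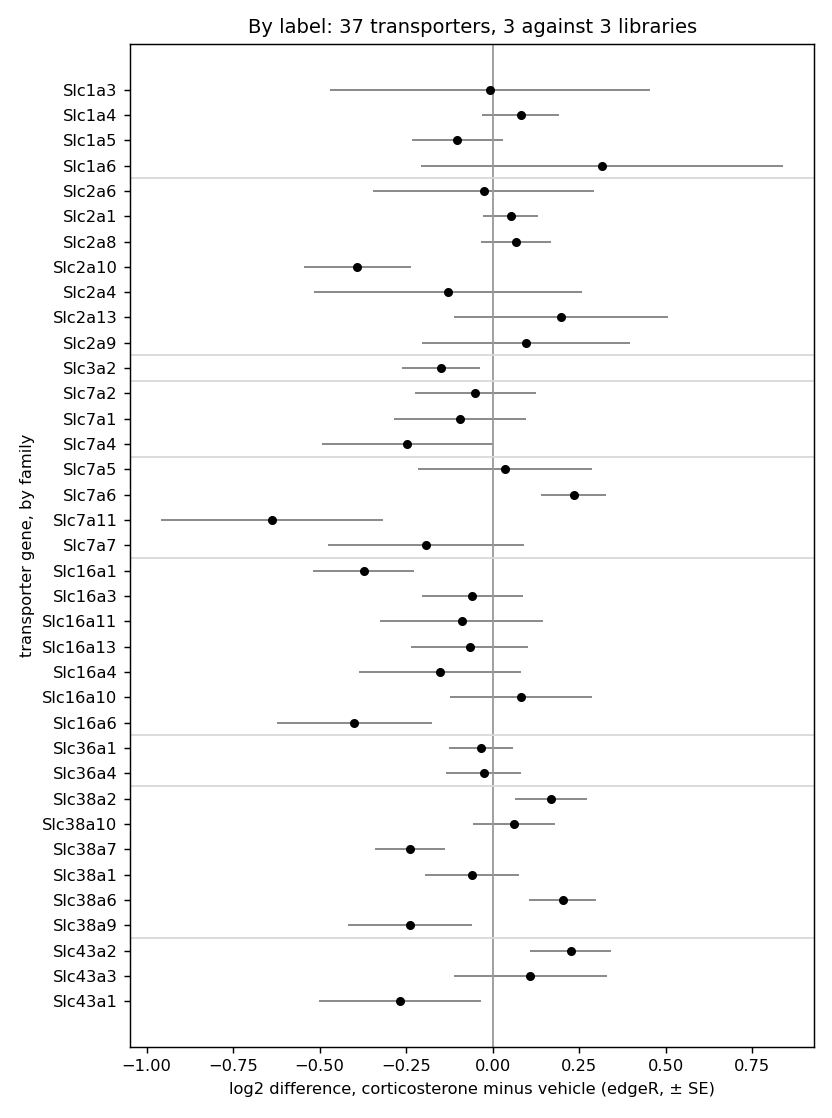
Log2 difference, corticosterone minus vehicle, for 37 tested transporters (points, edgeR estimate; bars, SE; 3 against 3 libraries). Most members lie within 1 SE of 0, and Slc7a11 lies lowest of those plotted, at -0.64.

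The members without overlap by label that are given here differed by small amounts. Slc7a6, a light chain that exchanges cationic for neutral amino acids, stood at 49.2, 47.7, 53.0, 37.7, 45.4 and 44.4 CPM (log2 difference 0.23 ± 0.09, SE, edgeR adjusted p = 0.403). Slc38a6, a member of the sodium-coupled amino acid family, gave 24.3, 23.0, 22.9, 18.5, 20.3 and 22.3 CPM. Slc38a7, which exports glutamine from lysosomes, gave 64.3, 64.6, 52.8, 74.0, 66.4 and 74.0 CPM (log2 difference -0.24 ± 0.10, edgeR adjusted p = 0.414). Slc2a10, a sugar and dehydroascorbate carrier of inner membranes, gave 3.60, 3.73, 4.05, 5.24, 5.17 and 4.51 CPM. For the first 3 of these the gap between the labels was smaller than the SD within either label, and for Slc2a10 it was slightly larger. The lactate and pyruvate carrier Slc16a1 had an unadjusted edgeR p of 0.0358 but overlapped, at 80.9, 62.3, 63.7, 103, 89.6 and 75.0 CPM, since C1 was above V3.

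Slc7a5 (ENSMUSG00000040010, chromosome 8, 121881150 to 121907694, GRCm38), the leucine exchanger of the plasma membrane, stood at 198, 194, 141, 160, 120 and 241 CPM. It was highest in V3 and lowest in V2, so the vehicle label held both extremes. The means by label were 178 ± 31.7 and 174 ± 61.6 CPM (SD, n = 3 each), and the log2 difference was 0.035 ± 0.25 (SE, edgeR adjusted p = 0.964). Its heavy chain Slc3a2 (ENSMUSG00000010095, chromosome 19, 8706882 to 8723369) gave 137, 139, 117, 152, 125 and 159 CPM. C3 and V2 were lowest and V3 was highest for both chains. The test by label did not call Slc3a2 either (log2 difference -0.15 ± 0.11, edgeR adjusted p = 0.611). Per kilobase of exon, Slc7a5 ran from 0.917 (V2) to 1.45 (V3) times Slc3a2.

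Slc7a11 (ENSMUSG00000027737, chromosome 3, 49892526 to 50443614), the light chain that imports cystine in exchange for glutamate and so feeds glutathione synthesis, stood at 3.84, 8.04, 5.07, 10.4, 5.86 and 10.1 CPM. C1, C3 and V2 were all below C2, V1 and V3, the reverse of their order for Fkbp5. By label the means were 5.65 ± 2.16 and 8.81 ± 2.56 CPM (SD, n = 3 each), and the log2 difference was -0.64 ± 0.32 (SE, edgeR adjusted p = 0.464). With C2 and V2 both left out it was -1.21, given as a description without a test because measured levels singled out these libraries. The counts ran from 110 to 267, and of the 95% Poisson intervals (on CPM without TMM scaling) only those of V2 and C2 touched across the gap, ending at 6.93 and starting at 6.88 CPM. Slc7a7, which pairs with Slc3a2 to exchange arginine and leucine, had the same division at 0.943, 1.44, 0.982, 1.33, 1.03 and 1.504 CPM. Its counts of only 25 to 42 had Poisson intervals that overlapped throughout, so that the order of its libraries lies within counting error. An exon of Slc7a7 also overlaps the antisense gene Oxa1l, whose reads cannot be told apart here without strand.

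The upstream sequence of these genes is shown because Slc7a11 and Slc7a7 were the 2 members, of 28 tested with an entry, that held the C/EBP-ATF element TGATGNAA, to which ATF4 binds with C/EBP factors. Slc38a2, Slc3a2 and Slc7a1 were searched too and did not hold the C/EBP-ATF element in this window. Slc7a5 was among the tested members without an entry and was not searched. Each line gives the 250 bases before the start site, 5′ to 3′ on the gene's strand, from RefSeq's annotation of GRCm38.p6. The 4 motifs, searched on both strands, stand in capitals: TGATGNAA, the glucocorticoid response element arm AGAACA, the antioxidant response element core TGACNNNGC, and the E-box CACGTG. No match overlapped another in these 3 sequences. Slc2a6, the most abundant sugar carrier here, is shown beside them.
Slc7a11, chr3:50443614-50443863, minus strand: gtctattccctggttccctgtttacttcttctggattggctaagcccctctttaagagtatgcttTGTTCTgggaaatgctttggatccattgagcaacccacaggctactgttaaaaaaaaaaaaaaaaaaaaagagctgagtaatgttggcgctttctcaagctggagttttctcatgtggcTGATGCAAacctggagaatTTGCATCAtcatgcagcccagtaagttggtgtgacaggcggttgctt
Slc7a7, chr14:54417703-54417952, minus strand: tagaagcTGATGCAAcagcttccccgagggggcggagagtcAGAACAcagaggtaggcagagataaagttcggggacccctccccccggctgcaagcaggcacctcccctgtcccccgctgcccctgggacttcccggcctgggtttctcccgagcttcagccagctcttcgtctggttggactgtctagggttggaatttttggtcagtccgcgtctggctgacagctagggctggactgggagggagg
Slc2a6, chr2:27027999-27028248, minus strand: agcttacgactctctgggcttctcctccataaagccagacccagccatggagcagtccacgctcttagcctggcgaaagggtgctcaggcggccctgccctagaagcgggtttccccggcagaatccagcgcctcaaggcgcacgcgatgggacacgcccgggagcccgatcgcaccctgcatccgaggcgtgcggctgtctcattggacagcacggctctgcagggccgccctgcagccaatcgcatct

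In Slc7a11 the element stood at bases -66 to -59 and again, on the opposite strand, at -47 to -40 before the start site. In Slc7a7 it stood at -243 to -236. Slc7a7 has 5 RefSeq starts, and only the start nearest to that of its main gene model was searched. Among 32851 RefSeq promoter windows of the same length, 3.45% held it. The arm AGAACA was in 6 of the 28 members and in 16.1% of all windows, TGACNNNGC in 4 of 28 and 10.2%, and CACGTG in 5 of 28 and 6.02%. Slc2a6 held none of the 4 in this window. A match is a run of letters and was not tested for binding.

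Slc2a6 (ENSMUSG00000036067, chromosome 2, 27021363 to 27027998), a sugar carrier of the SLC2 family found on lysosomes, stood at 63.2, 123, 76.4, 86.9, 57.3 and 123 CPM. C1, C3 and V2 were again the 3 lowest libraries. Each label held both high and low libraries, and the means were 87.6 ± 31.5 and 89.2 ± 33.1 CPM (SD, n = 3 each). The log2 difference by label was accordingly -0.03 ± 0.32 (SE, edgeR adjusted p = 0.979), and it ran from -0.35 to 0.27 with 1 library left out. With counts of 1663 to 3595, it was the only one of the 9 members separated by this division whose Poisson intervals on the 2 sides did not touch. Relative to Slc2a1 per kilobase, it ran from 1.04 in V2 to 2.35 in C2.

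Slc2a1 (ENSMUSG00000028645, chromosome 4, 119108711 to 119137983), the basal glucose carrier, was among the steadiest members, at 61.3, 57.2, 67.4, 60.7, 59.96 and 58.6 CPM. Its highest library was 1.18 times its lowest, where the median of the 38 members was 1.58 and that of all genes 1.39. The difference by label was 0.05 ± 0.08 (SE, edgeR adjusted p = 0.808). Slc2a8, an intracellular glucose carrier, was as even, at 11.4 to 13.3 CPM. Slc2a4 stood at 3.88, 1.198, 2.67, 2.62, 2.76 and 3.09 CPM, with C2 lowest and C1 highest, and its label difference of -0.13 ± 0.39 was within error. Slc2a13, a myo-inositol carrier, and Slc2a9 lay between 0.664 and 2.40 CPM in every library.

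**Figure D4:**
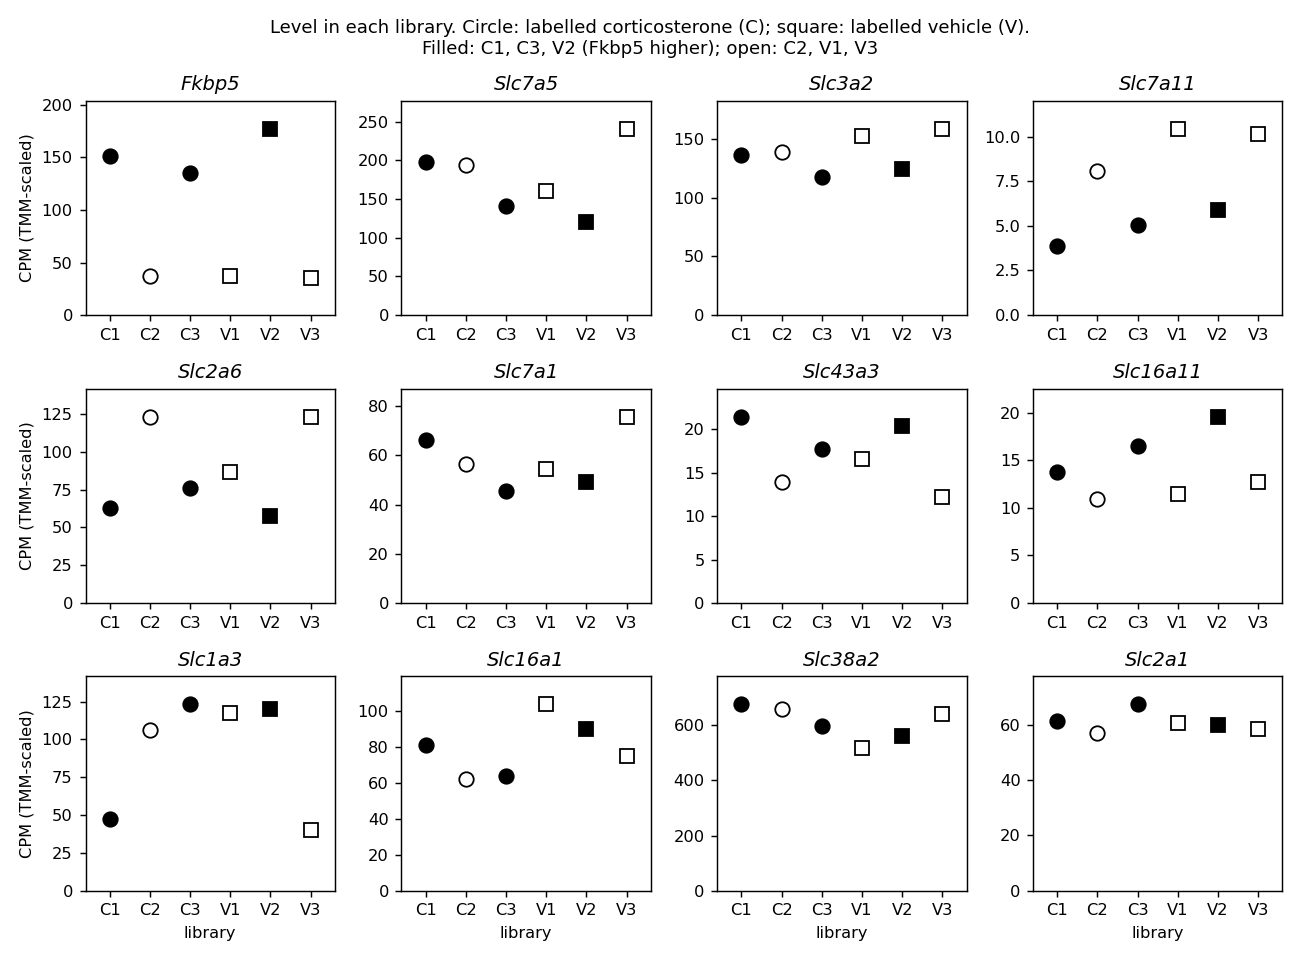
CPM in each library of Fkbp5 and of 11 transporters (circles, labelled corticosterone; squares, labelled vehicle; filled, C1, C3 and V2; open, C2, V1 and V3; each axis starts at 0). Filled points lie above open ones for Fkbp5, Slc43a3 and Slc16a11 and below them for Slc3a2, Slc7a11 and Slc2a6.

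Counted over all members, 6 had all of C1, C3 and V2 below the other 3 libraries, which is 15.8% of the 38 tested, where 4.76% of all genes were. These were Slc3a2, Slc2a6, Slc1a5, Slc7a11, Slc16a4 and Slc7a7. 3 members, Slc43a3, Slc16a11 and Slc1a6, had them above the other 3, which is 7.89%, where 4.89% of all genes were. These counts are descriptions, and nothing is claimed from them about transporters as a class. For Slc3a2 and Slc1a5 the gap was small: Slc1a5, a carrier of glutamine and other neutral amino acids, gave 11.2, 11.4, 10.7, 11.999, 10.2 and 13.6 CPM. Slc16a4, an orphan of the monocarboxylate family, gave 3.18, 5.89, 4.44, 5.32, 4.72 and 4.97 CPM.

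Among the 3 on the higher side, Slc43a3 (ENSMUSG00000027074, chromosome 2, 84936579 to 84958509), which carries purine bases, stood at 21.5, 13.9, 17.7, 16.5, 20.4 and 12.2 CPM. Its neighbour Slc43a1, a carrier of large neutral amino acids 72984 bases away, did not share this order, at 6.08, 5.79, 5.81, 6.21, 9.75 and 5.26 CPM, high in V2 alone. Slc16a11 (ENSMUSG00000040938, chromosome 11, 70212752 to 70216417), a monocarboxylate carrier, gave 13.8, 10.9, 16.5, 11.4, 19.6 and 12.7 CPM. It lies tail to tail with Slc16a13, 371 bases apart, and Slc16a13 gave 12.2, 9.65, 8.53, 10.0, 9.72 and 12.2 CPM without this order. Slc1a6, a glutamate carrier best known in cerebellar neurons, gave 2.59, 2.40, 5.50, 2.54, 4.65 and 1.13 CPM. It separated the libraries under 2 of the 4 scalings only, while the other 8 members did so under all 4.

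Signs were also read within the near pairs. Each pair holds a library with high and a library with low Fkbp5. Every member separated by that division therefore shares a sign here by construction. Taking in each pair the library with high Fkbp5 minus the one with low (C1 minus V3, C3 minus C2, V2 minus V1), 11 members were lower in 3 of 3 pairs, where 20.5% of all genes were. 8 members were higher in 3 of 3, where 20.1% of all genes were. As shares of the 38 these are 28.9% and 21.1%. The 19 members kept this sign under all 4 scalings. Each pair is a single library against a single library, with no replicate check of its own. These counts too are descriptions, and nothing is claimed from them about transporters as a class.

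The members that were lower in every pair included both chains of the leucine exchanger. Slc7a5 differed by -0.28, -0.46 and -0.41 on the log2 scale of CPM + 0.5 (C1 minus V3, C3 minus C2, V2 minus V1). Slc3a2 differed by -0.21, -0.24 and -0.29. Although Slc7a5 overlapped between labels and between high- and low-Fkbp5 libraries, it was thus lower by a like amount within each pair. Slc7a11 differed by -1.29, -0.62 and -0.78, and Slc2a6 by -0.96, -0.68 and -0.60. Slc7a1, a carrier of arginine and lysine, stood at 66.1, 56.4, 45.5, 54.5, 49.2 and 75.8 CPM and differed by -0.20, -0.31 and -0.14. Slc38a7, Slc36a1 (a proton-coupled exporter of lysosomes), Slc1a5, Slc16a4 and Slc7a7 were also lower in each.

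Those higher in every pair included all 3 tested Slc43 genes. Slc43a3 differed by 0.79, 0.34 and 0.30 and Slc43a2, a leucine carrier, by 0.15, 0.06 and 0.26. Slc43a2 itself stood at 88.9, 77.3, 80.5, 59.5, 71.4 and 80.1 CPM. Slc16a11, Slc1a6, Slc2a4, Slc7a6, Slc43a1 and Slc1a3 were the others, and some of their steps were near 0, as for Slc43a1 in C3 minus C2 (0.0068).

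**Figure D5:**
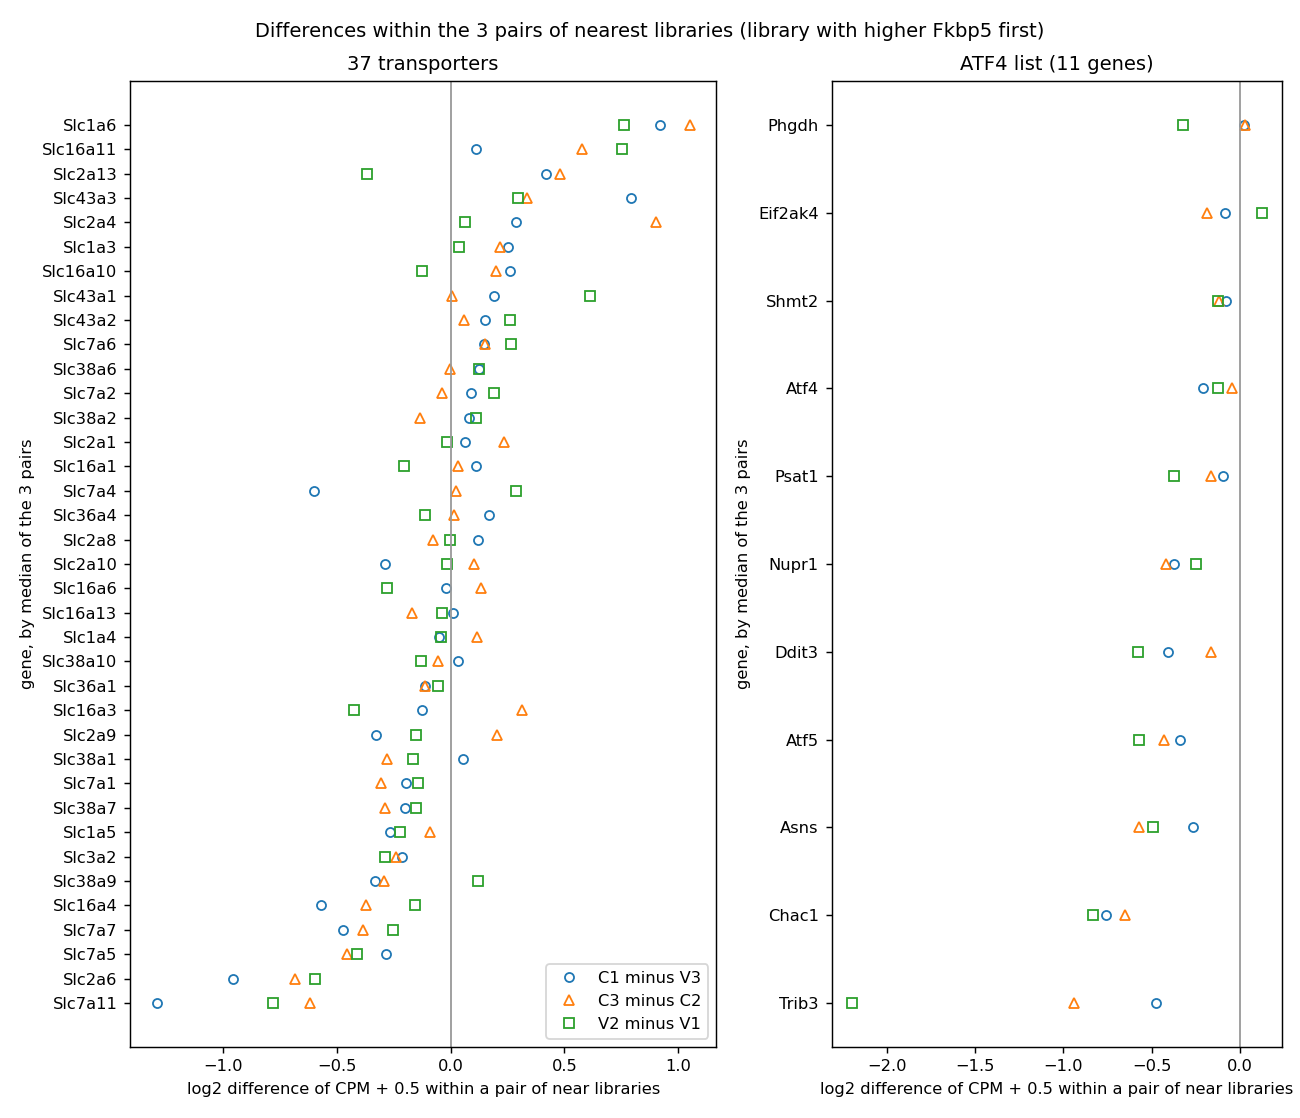
Log2 difference of CPM + 0.5 within each of the 3 near pairs (circle, C1 minus V3; triangle, C3 minus C2; square, V2 minus V1) for 37 transporters (left) and 11 genes of the ATF4 response (right), ordered by the median of the 3. Slc7a11, Slc2a6 and Slc7a5 lie at the lower end. Of the 11 ATF4 genes, 9 are below 0 in each pair, where 20.5% of all genes tested are. This is a description without a test. The list was chosen with earlier results of these data known, and the pairs were added after the values were seen.

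Slc38a2 (ENSMUSG00000022462, chromosome 15, 96687392 to 96699730), the most abundant member and a known ATF4 target, did not share this order. It stood at 674, 657, 597, 518, 559 and 638 CPM and differed by 0.08, -0.14 and 0.11 within the pairs. By label the means were 643 ± 40.3 and 572 ± 61.0 CPM (SD, n = 3 each), and the log2 difference was 0.17 ± 0.10 (SE, edgeR adjusted p = 0.536). Slc38a10, of the same family, gave 163, 205, 198, 199.8, 183 and 160.1 CPM and Slc38a1, a second glutamine importer, 71.1, 60.8, 50.0, 64.2, 57.2 and 68.4 CPM. Slc38a9, the lysosomal arginine sensor, was highest in V3 at 26.4 CPM and lowest in C3 at 14.9 CPM. All 3 overlapped between the labels.

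The glutamate carrier Slc1a3 (ENSMUSG00000005360, chromosome 15, 8634124 to 8710764) followed the near pairs rather than the labels or Fkbp5. It stood at 47.7, 106, 123, 117, 120.4 and 40.1 CPM, so that C1 and V3 lay far below the other 4. Its label difference was -0.0067 ± 0.46 (SE, edgeR adjusted p = 0.997). Slc7a2, the most abundant cationic carrier tested, was also lowest in C1 and V3, at 97.3, 127, 123, 125, 143 and 91.3 CPM. Slc1a4, a carrier of alanine, serine and cysteine, varied less, at 55.9, 67.9, 73.5, 65.3, 63.3 and 57.9 CPM, with the same 2 libraries lowest. The proton-coupled Slc36a1 and Slc36a4 lay between 22.7 and 31.6 CPM in every library. The lactate exporter Slc16a3 gave 36.8, 30.0, 37.5, 39.3, 29.2 and 40.2 CPM, with C2 and V2 lowest. Slc7a4, a relative of the cationic carriers, lay between 1.54 and 2.59 CPM, and one of its exons overlaps the antisense gene P2rx6. The aromatic amino acid carrier Slc16a10 lay between 2.77 and 4.16 CPM and overlapped between the labels. Slc16a6, of the same family, gave 2.59, 2.499, 2.79, 4.30, 3.45 and 2.63 CPM (log2 difference -0.40 ± 0.22, SE). Its exons overlap the antisense genes Amz2 and Arsg, so its reads may be shared. Exons of Slc2a1, Slc38a10, Slc7a2, Slc43a2 and Slc38a9 also overlap antisense genes, so their reads may be shared too.

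Genes of the same pathways outside these families were read from the same fit, from lists chosen with earlier results of these data known. None of the 51 tested genes was called by edgeR. The counts by label for each list stand beside 7314 higher and 7066 lower over all genes tested. In the ATF4 response list 4 of 11 genes lay higher and 7 lower by label, with a median log2 difference of -0.19. Within the near pairs 9 of 11 were lower in 3 of 3, where 20.5% of all genes were, and 0 were higher, where 20.1% were. Asns, which encodes asparagine synthetase, stood at 55.9, 44.2, 29.6, 50.9, 36.01 and 67.2 CPM, and like Slc7a5 it was highest in V3 and low in C3 and V2. Chac1, a glutathione-degrading enzyme, gave 21.6, 20.2, 12.7, 21.0, 11.6 and 36.9 CPM. Trib3, a pseudokinase, gave 8.84, 8.15, 4.01, 19.2, 3.79 and 12.5 CPM. Atf4 itself varied less, at 315, 312, 302, 313, 288 and 365 CPM. Atf4, Asns, Chac1 and Trib3 were named after their values were seen.

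For amino acid sensing, 6 of 13 genes lay higher and 7 lower by label. In 3 of 3 near pairs 4 were lower, where 20.5% of all genes were, and 1 was higher, where 20.1% were. Lamtor5, a subunit of the lysosomal mTORC1 anchor, gave 45.0, 45.9, 43.5, 65.4, 61.2 and 48.8 CPM, without overlap between the labels (log2 difference -0.38 ± 0.11, SE, edgeR adjusted p = 0.364). For glucose uptake and trafficking, 7 of 8 lay higher by label. Hk1, the hexokinase that traps glucose in the cell, gave 197, 205, 204, 150.0, 153 and 181 CPM (log2 difference 0.33 ± 0.09, edgeR adjusted p = 0.364). For partner proteins of the lactate carriers and for lactate and pyruvate handling, 4 of 6 lay higher. Bsg, the chaperone of Slc16a1 and Slc16a3, was even at 530.2 to 639 CPM, while Emb, another partner, gave 21.7, 21.8, 49.0, 24.2, 51.7 and 12.2 CPM. Emb was thus high in C3 and V2, as Slc1a6 was. Of the other amino acid carriers, 3 of 7 lay higher, and Slc6a6, the taurine carrier, stood at 1462, 1521, 1085, 1309, 1262 and 1546 CPM, above every member. For branched-chain and glutamine use, 4 of 6 lay higher. Glul, which makes glutamine and is a known glucocorticoid target, differed by 1.00, 1.11 and 1.01 within the near pairs. Lamtor5, Hk1, Bsg, Emb, Slc6a6 and Glul were likewise named after their values were seen.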

How the data were processed

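Raw counts of reads were deposited by gene in a single table, in which each library has its column. HISAT2 2.0.5, HTSeq 0.6.1, DESeq2 1.24.0 and mm10 are named per the submitters' processing notes. The annotation, strand setting and filters of the authors were not given in the sources used here. Every row named a gene, and no value column was left unmapped. Exon lengths and coordinates came from GENCODE M21 (GRCm38), and promoters from RefSeq, with an entry for 50 of the 68 members. Exon length is the union over transcripts, so that genes with long rare isoforms read low per kilobase.

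Corticosterone was compared with vehicle by edgeR 4.0.16 (R 4.3.3), quasi-likelihood F-test, TMM scaling and two-sided p-values with Benjamini-Hochberg adjustment over the 14380 genes with a summed count of 60 or more. The SE was taken from the log2 difference and the F statistic. Poisson intervals cover counting error only. The functions were tested on simulated data. No replicate block was used.

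Alternatives were DESeq2 1.42.0, limma-voom (limma 3.58.1), 3 other scalings, 3 other count filters, the block, each library left out, and C2 and V2 left out together. C2 and V2 were picked by their measured levels, so fits without them are a description and not a test. The near pairs were added after the values were seen, with a pseudocount of 0.5 CPM. The members and lists were chosen with earlier results of these data known. Named members were the 3 markers, the 3 most abundant per family, those with an unadjusted p under 0.05 (up to 5 per direction), and those with the widest gap between C1, C3, V2 and the rest (up to 5 per direction). Others were named after their values were seen. 1 tested member is counted but not reported here by name.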

Additional observations from a re-analysis of the deposited data

How the results depend on the processing

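No member was called under any of the 16 alternatives. Over all genes, the count of 0 became 138 with DESeq2 and 3 with C2 and V2 left out, and 0 to 29 with 1 library left out. With the replicate block it was 0, and 2 members had an unadjusted p under 0.05 instead of 5. Same-numbered libraries deviated from their group means in opposite directions (r = -0.16, -0.29 and -0.34 across genes). These means were taken by label, though C2 and V2 went against theirs on Fkbp5. The values therefore cannot decide whether the numbers pair the libraries. With 1 library left out, the count of members with an unadjusted p under 0.05 was 1 to 8. The 5 members without overlap between labels became 6 to 11 with 1 library left out, 17 with C2 and V2 left out and 8 with no count filter. Fewer libraries separate more easily, and more genes were read without a filter. Shares over all genes were not taken for these settings, so nothing is read from these counts about transporters. Of the 29 named members, 13 kept the sign of their label difference throughout. It turned for Slc1a3 with limma-voom (0.038), with the block (0.024) and without C2 and V2 (0.12), and for Slc7a5 with library totals only (-0.0099) and without C2 and V2 (-0.24). Without C2 and V2 it also turned for Slc16a11 (0.33), Slc43a1 (0.051) and Slc7a2 (0.026). With 1 library left out, differences that changed sign ran from -0.24 to 0.18 (Slc16a11), -0.20 to 0.036 (Slc16a3), -0.39 to 0.048 (Slc16a4), -0.37 to 0.31 (Slc1a3), -0.0063 to 0.19 (Slc1a4), -0.16 to 0.92 (Slc1a6), -0.013 to 0.11 (Slc2a1), -0.35 to 0.27 (Slc2a6), -0.098 to 0.033 (Slc36a1), -0.13 to 0.056 (Slc36a4), -0.025 to 0.16 (Slc38a10), -0.45 to 0.036 (Slc43a1), -0.070 to 0.30 (Slc43a3), -0.23 to 0.11 (Slc7a1), -0.22 to 0.093 (Slc7a2) and -0.17 to 0.34 (Slc7a5). The causes were not tested. Members under about 5 CPM rest on counts near 100 or fewer in some libraries, which limits what their order can show.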
